A study of Mus musculus with 9 samples.

Results

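The mitochondrial genome entries are the rows that the count table places on the mitochondrial chromosome, chosen by that label alone. There were 13 of them among 25965 gene entries, and all 13 were protein genes. The 22 tRNA genes and 2 rRNA genes of the mouse mitochondrial genome in the GENCODE M21 annotation were not analysed here. Of the 13, 12 lie on the plus strand and mt-Nd6 alone lies on the minus strand. The 13 entries have the same start, end and strand in GENCODE M21 (build GRCm38) as in the table. On the mitochondrial chromosome the plus-strand entries run in the order mt-Nd1 (2751 to 3707), mt-Nd2 (3914 to 4951), mt-Co1 (5328 to 6872), mt-Co2 (7013 to 7696), mt-Atp8 (7766 to 7969), mt-Atp6 (7927 to 8607), mt-Co3 (8607 to 9390), mt-Nd3 (9459 to 9806), mt-Nd4l (9877 to 10173), mt-Nd4 (10167 to 11544), mt-Nd5 (11742 to 13565) and mt-Cytb (14145 to 15288). mt-Nd6 lies at 13552 to 14070 on the minus strand, between mt-Nd5 and mt-Cytb. None of these genes has an intron, and neighbours overlap by 43 bp (mt-Atp8 and mt-Atp6), 14 bp (mt-Nd5 and mt-Nd6), 7 bp (mt-Nd4l and mt-Nd4) and 1 bp (mt-Atp6 and mt-Co3).

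The mitochondrial genome is a small circle that is transcribed from both strands into long precursors. These are then cut at the tRNAs that lie between most of the genes. Its protein genes all encode subunits of the respiratory chain and of ATP synthase: 7 members of complex I (NADH dehydrogenase), 1 of complex III (cytochrome b), 3 of complex IV (cytochrome c oxidase) and 2 of complex V (ATP synthase). Copies of mitochondrial DNA have also been inserted into nuclear chromosomes during evolution, and some of them still carry nearly the same sequence. In peripheral nerve, axons and Schwann cells both hold mitochondria.

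Total RNA was extracted from sciatic nerves of C57BL/6 mice, stripped of the epineurium, and sequenced as Illumina TruSeq libraries, with 3 libraries each from PINCH1 mutants, PINCH2 mutants and control littermates. For each library 4 nerves, taken from 1 male and 1 female, were pooled, so p-values measure the spread between pools. The stage label reads postnatal day 15 and the protocol day 14. The promoter or Cre line behind the mutations was not stated in the labels, nor was any selection for polyadenylated RNA or against ribosomal RNA. PINCH1 and PINCH2, encoded by Lims1 and Lims2, are adaptor proteins of integrin adhesions.

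Library totals ran from 957828 to 1204964 counts, on 9674 to 11240 entries with a count. The targeted gene Lims1 had 0, 1 and 3 counts in PINCH1 mutants and 3, 7 and 7 in controls, and Lims2 had 5, 1 and 1 in PINCH2 mutants and 9, 1 and 5 in controls, too few to check the labels. All 13 Schwann cell and myelin markers had counts. Their summed level was 11151 to 14066 CPM (counts per 1000000 counts of the library) in PINCH1 mutants, 11670 to 13465 CPM in PINCH2 mutants and 14289 to 18061 CPM in controls, with no overlap of either mutant group with controls. Of the 4738 single entries tested below, 7.49% in PINCH1 mutants and 4.81% in PINCH2 mutants were lower than in controls without overlap. Of 12 skeletal muscle markers 7 had counts, with summed levels of 18.3 to 18.9, 14.9 to 18.1 and 6.74 to 20.0 CPM in the same groups, and the muscle actin gene Acta1 was at 0. The muscle sums of the mutant groups did not overlap each other in CPM, by a narrow gap (18.27 against 18.08 CPM), and both overlapped controls. Between the mutants, 5.42% of the 4738 entries were higher and 5.57% lower without overlap. Of 6 adipocyte markers 3 had counts (Adipoq, Plin1 and Ucp1 were at 0), and their sum was 4.73 to 11.5 CPM in PINCH1 mutants, 2.49 to 8.22 CPM in PINCH2 mutants and 0.957 to 4.54 CPM in controls. This sum was higher in PINCH1 mutants than in controls without overlap, by a narrow gap (4.73 against 4.54 CPM). Of the 4738 tested entries, 6.16% were higher in that way. The adipocyte and muscle sums rest on few counts, since 3 counts came to 2.49 to 3.13 CPM over the libraries. The lists of erythroid, neuron, fibroblast, endothelial and macrophage markers overlapped between all groups. Of these 8 lists, that of neuron markers alone was lowest in library 2 of every genotype (5 of 8 markers with counts; Calca, Rbfox3 and Snap25 were at 0). The part of these cell types in the mitochondrial values was not tested. The labels do not say from which strand reads were counted. Of the nuclear counts, 88.0% lay on the 24.7% of nuclear entries whose exons overlap a gene on the opposite strand, so a count is not shown to come from the named gene's strand, for the mitochondrial entries as well.

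Summed over all 13, the mitochondrial entries took about the same share of each library. It was 11.9%, 10.8% and 12.7% of all counts in PINCH1 mutants, 9.75%, 11.2% and 12.2% in PINCH2 mutants and 11.9%, 10.1% and 11.5% in controls. The means were 11.8% ± 0.94, 11.1% ± 1.23 and 11.2% ± 0.96 (SD, n = 3 each). The groups overlapped, and the means lay closer together than the libraries within a group. The exact 95% binomial interval reached at most 0.063 percentage points to either side, for counting error only. With mt-Nd6 left out of the entries and of the library total, the share varied more. It was 1.81%, 0.999% and 2.04% in PINCH1 mutants, 1.66%, 1.15% and 2.20% in PINCH2 mutants and 1.66%, 1.13% and 2.43% in controls. The library numbered 2 was the lowest in each genotype. In whole nerve, fewer cells of a type and less RNA per cell cannot be told apart.

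Most of the mitochondrial counts stood under mt-Nd6, a complex I subunit and the only protein gene on the minus strand. The labels do not say from which strand reads were counted, so these counts are not shown to be mt-Nd6 RNA. It had 108334, 94688 and 130509 counts in PINCH1 mutants, 80010, 122831 and 107413 in PINCH2 mutants and 109016, 94108 and 102738 in controls. That was 85.6% to 91.6% of the mitochondrial counts in PINCH1 mutants, 83.8% to 90.8% in PINCH2 mutants and 80.9% to 89.8% in controls, and 8.22% to 10.8% of a whole library. The 3 groups overlapped in counts and in shares. mt-Nd6 shares its last 14 bases with the end of mt-Nd5 on the other strand. The 2 ends are shown because they are the only place where entries of opposite strands meet. Each is the last 30 bases of the transcript in GENCODE M21, read 5′ to 3′, with the shared bases in capitals.
mt-Nd5 end: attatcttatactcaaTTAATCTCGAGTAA
mt-Nd6 end: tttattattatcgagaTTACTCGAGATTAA

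Per kilobase of entry, mt-Nd6 stood far above the plus-strand entries, in counts whose strand is not given. It averaged 189347 ± 15664 CPM per kb over the 9 libraries (SD), followed by the cytochrome b gene mt-Cytb at 2511 ± 318 CPM per kb. In CPM per kb, the ratio of mt-Nd6 to mt-Cytb was 79.9 to 92.8 in PINCH1 mutants, 69.6 to 80.6 in PINCH2 mutants and 62.9 to 73.1 in controls. PINCH1 mutants overlapped PINCH2 mutants in that ratio but not controls, at 84.7 ± 7.0 against 68.2 ± 5.16 (SD, n = 3 each). The difference was not tested, since the ratio was chosen after the counts were seen. Of the 4738 single entries tested below, 6.16% were higher and 7.49% lower in PINCH1 mutants than in controls without overlap. Against mt-Nd5 the ratio overlapped between all groups, at 82.3 to 156, 105 to 155 and 116 to 170.

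The other 11 entries lay within a narrow band per kilobase when averaged over all libraries. The complex I genes mt-Nd4 and mt-Nd5 averaged 1588 ± 571 and 1513 ± 423 CPM per kb and the complex IV gene mt-Co1 1476 ± 406. Next came mt-Atp6 (1248 ± 1178), mt-Co3 (1143 ± 1030), mt-Nd2 (1128 ± 210), mt-Nd4l (1060 ± 953), mt-Nd1 (975 ± 172), mt-Atp8 (840 ± 772), mt-Nd3 (665 ± 475) and mt-Co2 (647 ± 662). Among these 11, no neighbours in that order differed by more than their SD.

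**Figure D1:**
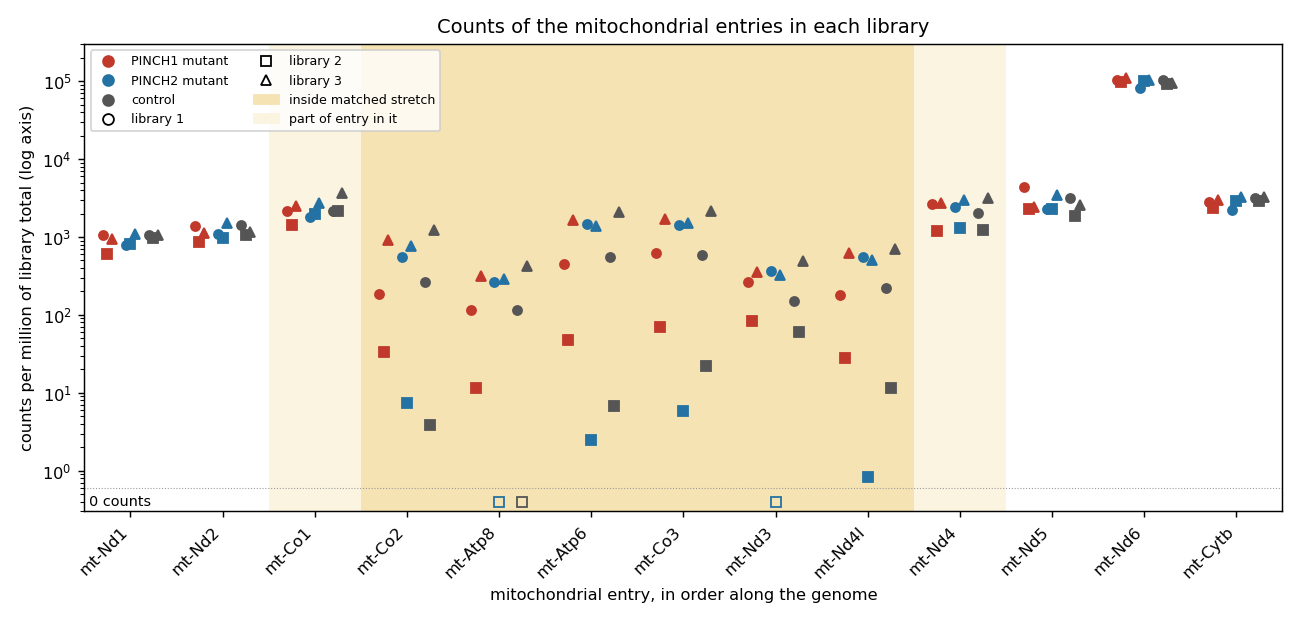
CPM (log axis) for the 13 mitochondrial entries in genome order, with each point a library, colours for the genotype, shapes for the library number, and open symbols on the bottom line for 0 counts. From mt-Co2 to mt-Nd4l the libraries numbered 2 (squares) lie below the other libraries of their genotype, and mt-Nd6 stands apart at the top, with 8.22% to 10.8% of all counts.

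A run of 6 neighbouring entries varied widely between libraries of 1 genotype. These are mt-Co2, mt-Atp8, mt-Atp6, mt-Co3, mt-Nd3 and mt-Nd4l, and they include all the complex V genes. mt-Co2, a core subunit of complex IV, had 197, 32 and 1106 counts in PINCH1 mutants, 544, 9 and 805 in PINCH2 mutants and 274, 4 and 1373 in controls. The library numbered 2 was the lowest of its group in each genotype. Of the 8 marker lists, that of neuron markers alone had the same lowest library in every genotype. Its CPM sums were 142, 54.3 and 109 in PINCH1 mutants, 186, 118 and 130 in PINCH2 mutants and 175, 96.3 and 142 in controls. The part of these markers in the run was not tested.

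mt-Atp6, a subunit of the proton channel of ATP synthase, had 482, 45 and 1968 counts in PINCH1 mutants, 1434, 3 and 1454 in PINCH2 mutants and 577, 7 and 2304 in controls. mt-Co3, the third core subunit of complex IV, had 667, 66 and 2063 counts in PINCH1 mutants, 1374, 7 and 1573 in PINCH2 mutants and 613, 23 and 2344 in controls. Both followed the order of mt-Co2 in that the libraries numbered 2 were lowest. The other 3 members of the run are named here after their values were seen. mt-Nd4l, a small membrane subunit of complex I, had 192, 27 and 745 counts in PINCH1 mutants, 543, 1 and 526 in PINCH2 mutants and 234, 12 and 782 in controls. mt-Nd3, another membrane subunit of complex I, had 278, 81 and 422 counts in PINCH1 mutants, 351, 0 and 341 in PINCH2 mutants and 156, 63 and 539 in controls. mt-Atp8, the smallest subunit encoded here, had 121, 11 and 385 counts in PINCH1 mutants, 261, 0 and 304 in PINCH2 mutants and 122, 0 and 464 in controls. In each of the 6 entries the groups overlapped. The limit that a count of 0 allows, 3 counts, came to 2.49 CPM in PINCH2 mutant library 2 and 2.89 CPM in control library 2, for counting error only.

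Outside the run the same libraries varied far less. mt-Nd1, a core complex I subunit, had 1112, 582 and 1126 counts in PINCH1 mutants, 760, 988 and 1142 in PINCH2 mutants and 1107, 1019 and 1178 in controls. mt-Nd2, another core subunit, had 1461, 819 and 1337 counts in PINCH1 mutants, 1056, 1169 and 1565 in PINCH2 mutants and 1500, 1096 and 1265 in controls. In PINCH2 mutants the library numbered 2 did not have the lowest count in either entry, before scaling for depth. mt-Nd5, which helps to form the proton pumps of complex I, had 4627, 2217 and 2940 counts in PINCH1 mutants, 2256, 2780 and 3602 in PINCH2 mutants and 3317, 1951 and 2849 in controls. mt-Cytb had 2927, 2250 and 3601 counts in PINCH1 mutants, 2187, 3522 and 3400 in PINCH2 mutants and 3285, 3028 and 3603 in controls. In counts not scaled for depth, library 2 was the lowest of its group in all 4 entries in PINCH1 mutants and in controls. In PINCH2 mutants it was the lowest in none of them, but its total was the largest, at 1204964 counts against 973578 and 1050707. Scaled by these totals, PINCH2 mutant library 2 was the lowest in mt-Nd2 and narrowly in mt-Nd5, but not in mt-Nd1 or mt-Cytb. The 4 entries summed to 6126 CPM in PINCH1 mutant library 2, the lowest of all libraries, and to 6832 CPM in control library 2, against 8815 and 8079 CPM in the other controls.

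The entries at the edges of the run differed from each other. mt-Nd4, a complex I subunit that follows mt-Nd4l, had 2770, 1149 and 3276 counts in PINCH1 mutants, 2344, 1569 and 3151 in PINCH2 mutants and 2102, 1263 and 3534 in controls, again with library 2 lowest in each group. mt-Co1, the catalytic subunit of complex IV that precedes mt-Co2, had 2303, 1348 and 2988 counts in PINCH1 mutants, 1766, 2394 and 2881 in PINCH2 mutants and 2234, 2241 and 3981 in controls. In mt-Co1 library 3 was the highest of each group, and library 2 was the lowest of the PINCH1 mutants only.

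The run coincides with a near-identical copy on chromosome 1. The transcripts of the 13 genes were aligned to all other transcripts of GENCODE M21. At 99% identity or more, the matches to nuclear genes were all to 7 neighbouring pseudogenes on the minus strand of chromosome 1 (24611535 to 24616197, GRCm38). The outer ends of these matches enclose the mitochondrial stretch from position 6390 to 11042, called the matched stretch here. That stretch holds 6 entries whole, the same 6 as above, and parts of mt-Co1 and mt-Nd4. Between its outer ends the matched stretch was 4653 bp on the mitochondrial genome and 4654 bp on chromosome 1. This includes bases between the pseudogenes that were not compared.

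Within the aligned parts of the stretch the sequences hardly differed. mt-Co2 matched the pseudogene Gm28661 over 681 bases, mt-Atp6 matched Gm10925 over 678, mt-Co3 matched Gm28437 over 783 and mt-Nd4 matched Gm28439 over the first 876 of its 1378 bases, each with 0 differences. mt-Nd3 matched Gm28438 over 345 bases with 1 difference, T3C, counted from 1 at the transcript's 5′ end (mitochondrial position 9461). mt-Co1 matched Gm29216 over 483 of its 1545 bases with 1 difference, A1066T (mitochondrial position 6393). mt-Atp8 was matched over the 43 bases it shares with mt-Atp6. The rest of it lies between the matches of mt-Co2 and mt-Atp6, 233 bp apart on both chromosomes, where no transcript is annotated on chromosome 1. The sequence of that gap on chromosome 1 was not compared here.

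The differences between mitochondrial gene and copy within the aligned bases of mt-Nd3 and mt-Co1 are shown, since so few bases there tell the transcripts apart. The transcripts also differ in bases at their ends that were not aligned. Each line gives 60 bases of a GENCODE M21 transcript, with the differing base in capitals, for the start of mt-Nd3 and for mt-Co1 from base 1063.
mt-Nd3: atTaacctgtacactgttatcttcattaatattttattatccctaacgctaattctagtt
Gm28438: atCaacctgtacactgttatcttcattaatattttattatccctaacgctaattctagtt
mt-Co1: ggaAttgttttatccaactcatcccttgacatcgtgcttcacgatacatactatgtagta
Gm29216: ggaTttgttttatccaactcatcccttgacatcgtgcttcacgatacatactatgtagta

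mt-Nd4l is shown whole, with the 294 bases that it shares with Gm10222 without a difference in capitals.
mt-Nd4l: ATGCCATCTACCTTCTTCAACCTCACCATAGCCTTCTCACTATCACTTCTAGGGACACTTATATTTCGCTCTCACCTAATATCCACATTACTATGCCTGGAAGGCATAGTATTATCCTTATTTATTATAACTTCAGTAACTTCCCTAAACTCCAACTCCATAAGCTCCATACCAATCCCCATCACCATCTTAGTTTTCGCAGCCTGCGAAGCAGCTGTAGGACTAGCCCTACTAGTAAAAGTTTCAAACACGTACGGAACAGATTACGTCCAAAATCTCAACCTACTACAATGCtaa

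Outside the stretch the nuclear matches were more distant. The best match of mt-Nd6 was the processed pseudogene Gm11408 on chromosome 4, at 93.6% identity with 33 differences over its 519 bases. The first 60 bases of both are shown for comparison with the lines above, with the differing bases in capitals (A24G and T48C).
mt-Nd6: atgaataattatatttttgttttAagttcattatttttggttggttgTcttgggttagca
Gm11408: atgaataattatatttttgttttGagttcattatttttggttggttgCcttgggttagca
The best matches were at 92.9% identity over 1142 bases for mt-Cytb, 92.3% over 1058 for mt-Nd5, 96.7% over 510 for mt-Nd2 and 76.6% over 509 for mt-Nd1.

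Of the 7 pseudogenes on chromosome 1, 1 was among the entries of the count table. This was Gm10222, the copy of mt-Nd4l, with 22, 0 and 3 counts in PINCH1 mutants, 0, 11 and 44 in PINCH2 mutants and 19, 14 and 0 in controls. In PINCH2 mutant library 2, Gm10222 had 11 counts and mt-Nd4l 1 count. In control library 2, Gm10222 had 14 counts and mt-Nd4l 12. In the other 7 libraries mt-Nd4l was the higher of the pair, including PINCH1 mutant library 2, with 27 counts of mt-Nd4l and 0 of Gm10222. The labels do not say how reads that match more than 1 place were counted, and counts of these entries cannot be assigned to the mitochondrial genome or the copy.

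The 6 entries of the stretch were set against the 4 plus-strand entries without a match at 99% (mt-Nd1, mt-Nd2, mt-Nd5 and mt-Cytb). Their summed counts were 19.1%, 4.46% and 74.3% of the summed counts of those 4 in PINCH1 mutants, 72.0%, 0.236% and 51.5% in PINCH2 mutants and 21.5%, 1.54% and 87.8% in controls. The highest library was 371 times the lowest, while the 4 entries themselves ranged from 6126 to 9590 CPM. The group means, 32.6% ± 36.8, 41.3% ± 37.0 and 36.9% ± 45.1 (SD, n = 3 each), were closer together than the SD within any group. The lowest value rests on 20 counts, a share of 0.236% of both sets (exact 95% binomial interval 0.144% to 0.364%, for counting error only).

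**Figure D2:**
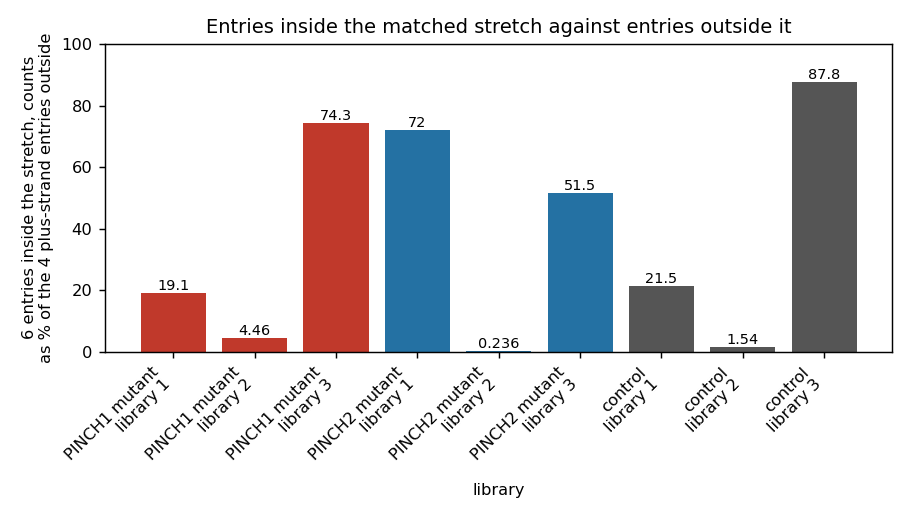
Summed counts of the 6 entries inside the matched stretch as a percentage of those of the 4 plus-strand entries outside it, with 1 bar per library and colours for the genotype. The library numbered 2 has the lowest bar in each genotype, at 4.46%, 0.236% and 1.54%.

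The 6 entries ranked the libraries almost alike. Spearman's rho of CPM over the 9 libraries was 0.92 to 1.00 among their 15 pairs, with a median of 0.97. Among the 6 pairs of the 4 entries outside the stretch it was 0.38 to 0.88, with a median of 0.74, and between the 2 sets 0.27 to 0.58. mt-Nd6 had a rho of -0.05 to 0.23 with the 6 entries and of 0.30 to 0.55 with the 4. These values describe the same 9 libraries, and a read that spans neighbouring entries could be counted in both.

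The spread within genotypes was measured with the biological coefficient of variation of edgeR, the relative spread between replicates beyond counting error. It was 1.37 for mt-Nd3, 1.47 for mt-Co3, 1.49 for mt-Nd4l, 1.51 for mt-Co2, 1.61 for mt-Atp6 and 1.98 for mt-Atp8, against a median of 0.29 over the 4738 entries tested. It was 0.42 for mt-Nd4 and 0.24 for mt-Co1, the entries that are partly in the stretch. It was 0.19 for mt-Nd6 and 0.20 to 0.26 for the 4 plus-strand entries outside. Of the 781 tested entries with a mean of at least that of mt-Atp8, the lowest member, the highest coefficient outside the mitochondrial entries was 1.32. Over all 4738 entries, from the highest down, mt-Atp8 ranked 2, mt-Atp6 5, mt-Co2 6, mt-Nd4l 7, mt-Co3 8 and mt-Nd3 10. Other entries with lower means thus ranked among them.

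**Figure D3:**
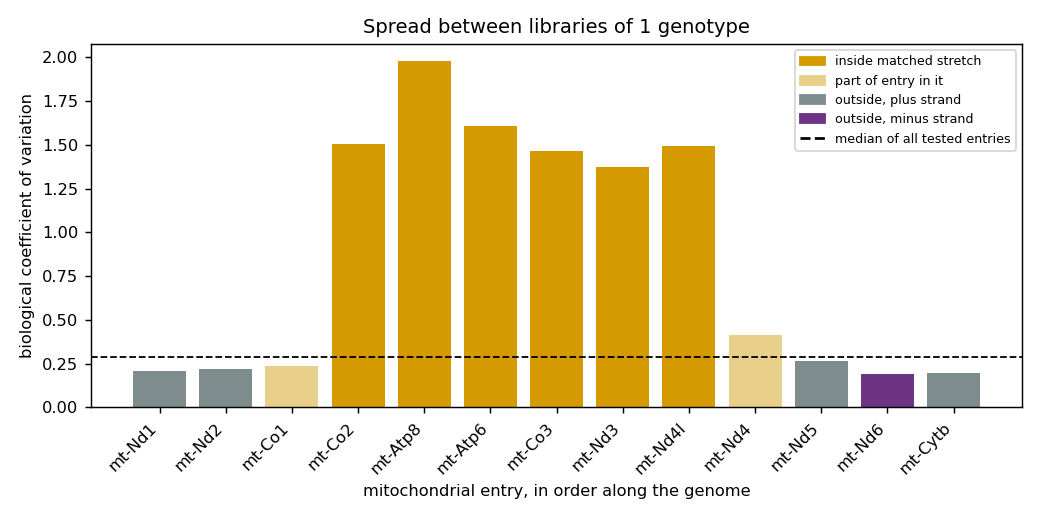
Biological coefficient of variation of each mitochondrial entry in genome order, as bars coloured by position relative to the matched stretch, with a dashed line at the median of all tested entries (0.29). The 6 entries inside the stretch stand at 1.37 to 1.98 and mt-Nd4, partly inside, at 0.42.

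The genotypes were then compared entry by entry. All 13 entries passed the filter on low counts. In the comparison of PINCH1 mutants with controls, 0 of the 13 passed the threshold (adjusted p under 0.05, edgeR quasi-likelihood test over all 4738 entries), where 0.0633% of all tested entries did. None of the 13 had an unadjusted p under 0.05, where 6.37% of all entries did, and DESeq2 and limma-voom called 0 of them as well. Under 5 of the alternatives 1 entry, mt-Co1, had an unadjusted p under 0.05. Of the 13, 3 had a log2 fold change above 0 and 10 below, with a median of -0.20, against -0.02 over all entries, of which 52.2% were below 0. No entry was without overlap between the groups, where 6.16% of all entries were higher and 7.49% lower without overlap.

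mt-Nd6 stood at 105065 ± 5468 CPM (scaled by TMM; SD, n = 3) in PINCH1 mutants and 97808 ± 12995 CPM in controls, a log2 fold change of 0.10 (SE 0.12, 95% interval -0.16 to 0.36, edgeR adjusted p = 0.931). mt-Cytb stood at 2743 ± 235 CPM in PINCH1 mutants and 3159 ± 277 CPM in controls, a log2 fold change of -0.20 (SE 0.15, interval -0.52 to 0.11, edgeR adjusted p = 0.867). The smallest p was that of mt-Co1, at 2041 ± 485 CPM in PINCH1 mutants and 2663 ± 789 CPM in controls, with a log2 fold change of -0.38 (SE 0.23, interval -0.86 to 0.10, edgeR adjusted p = 0.806). Within the stretch the intervals were much wider. mt-Atp6 had a log2 fold change of -0.32 (SE 2.09), with an interval of -5.39 to 4.75. The other log2 fold changes lay between -0.41 (mt-Co2, SE 1.93) and 0.23 (mt-Nd5, SE 0.28).

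In PINCH2 mutants against controls, 0 of the 13 entries passed with edgeR, DESeq2 or limma-voom, where edgeR called 0.0211% of all tested entries. None had an unadjusted p under 0.05, where 4.26% of all entries did. A log2 fold change above 0 was found for 8 and below 0 for 5, with a median of 0.01, against 0.004 over all entries. No entry was without overlap, where 4.24% of all entries were higher and 4.81% lower in that way. mt-Nd6 stood at 98476 ± 12203 CPM in PINCH2 mutants and 97808 ± 12995 CPM in controls, a log2 fold change of 0.0098 (SE 0.12, interval -0.25 to 0.27). mt-Co1 had the log2 fold change farthest from 0 in this comparison, at -0.24 (SE 0.23, edgeR adjusted p = 0.999). All 13 adjusted p-values rounded to 0.999. This comparison and the one before share the control libraries.

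Between the mutants, 0 of the 13 entries passed with edgeR, DESeq2 or limma-voom, where edgeR called 0.0844% of all tested entries. None had an unadjusted p under 0.05, where 6.35% of all entries did. Log2 fold changes, here PINCH1 over PINCH2, were above 0 for 2 entries (mt-Nd6 at 0.09, SE 0.12, and mt-Nd5 at 0.14, SE 0.28) and below for 11, with a median of -0.12 against -0.02 over all entries. No entry was without overlap, where 5.42% of all entries were higher and 5.57% lower in that way. Adjusted p-values ran from 0.983 to 1.00. Without the 3 libraries numbered 2, again 0 of the 13 entries passed in each of the 3 comparisons. For mt-Atp6 in PINCH1 mutants against controls the log2 fold change was then -0.36 (SE 0.99) and for mt-Co1 -0.36 (SE 0.23).

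**Figure D4:**
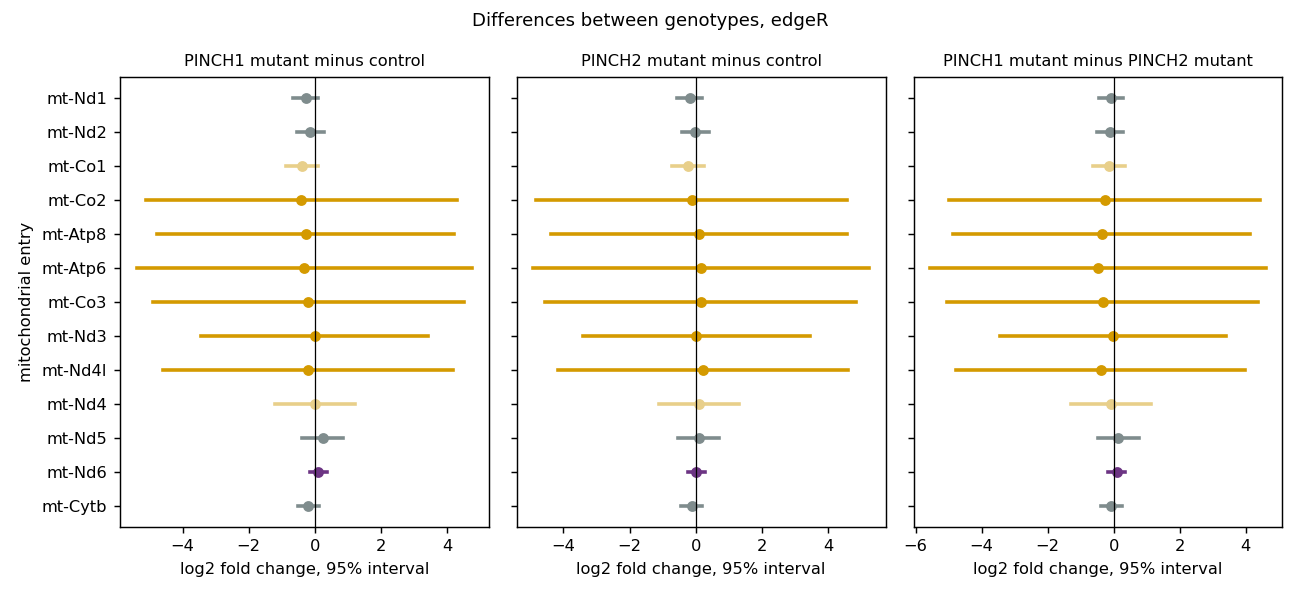
Log2 fold change of each mitochondrial entry with its 95% interval from edgeR, in genome order from top to bottom, for PINCH1 mutants minus controls, PINCH2 mutants minus controls and PINCH1 minus PINCH2 mutants. Every interval crosses 0, and those of the 6 entries inside the matched stretch (dark yellow) span several log2 units, while that of mt-Nd6 (purple) runs from -0.16 to 0.36 in the first panel.

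Nuclear genes whose products copy mitochondrial DNA or transcribe, cut, modify or stabilise mitochondrial RNA were examined as a list of 42 genes. All 42 were in the table, and 11 passed the filter on low counts. None of the 11 passed the threshold in any of the 3 comparisons with edgeR, where 0.0633%, 0.0211% and 0.0844% of all tested entries did. An unadjusted p under 0.05 was found for 0, 0 and 1 of the 11, where 6.37%, 4.26% and 6.35% of all entries had one. The 1 was Polg, the mitochondrial DNA polymerase, between the mutants (log2 fold change 1.12, SE 0.39, edgeR adjusted p = 0.602), named after its value was seen. The highest counts were under 1810035L17Rik (Slirp), a binding partner of the RNA-stabilising protein Lrpprc, with 2146 ± 292 CPM in PINCH1 mutants, 2166 ± 174 CPM in PINCH2 mutants and 2266 ± 263 CPM in controls. Next were Mterfd2 (Mterf4), which acts in mitochondrial ribosome assembly, at 1462 ± 153, 1533 ± 334 and 1448 ± 176 CPM in the same groups, and Fastk, a mitochondrial isoform of which is needed for mt-Nd6 mRNA, at 1281 ± 176, 1293 ± 267 and 1370 ± 143 CPM. These overlap exons of Alkbh1 and Snw1, Sned1 and Slc4a2 on the other strand. Each other tested entry of the list also overlaps an exon on the other strand, Polg that of Fanci. No entry of the list without such an overlap passed the filter. The levels and medians of the list are therefore not shown to come from the named genes. The list's median log2 fold change was 0.03 in PINCH1 mutants against controls (-0.02 over all entries), 0.003 in PINCH2 mutants against controls (0.004) and 0.02 between the mutants (-0.02).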

How the data were processed

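The mitochondrial entries, the lists and the alternatives were chosen with earlier results of these data known, and the grouping of entries by the matched stretch was made after their counts were seen. The deposited table, made by the authors, holds whole-number read counts per gene entry for 9 libraries, with no scaling for depth or length. Per the submitters' processing notes, HISAT2 2.0.5, cutadapt 1.9.1 and Trim Galore 0.4.2 were used, with GRCm38 as the build. The counting tool, its strand setting, its handling of reads that match several places and the annotation release are not given in these sources. Because the table is limited to whole entries, coverage within an entry was not seen.

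Differential counts were tested with edgeR 4.0.16 (R 4.3.3; TMM scaling, filterByExpr, robust quasi-likelihood F-test, all 9 libraries, genotype as the only term, Benjamini-Hochberg over 4738 entries, threshold 0.05), a procedure tested on simulated data. SE is the absolute log2 fold change over the square root of F, and 95% intervals use the t distribution with the total degrees of freedom. CPM means and SDs use TMM-scaled totals, and CPM per kb and marker sums use plain library totals. DESeq2 1.42.0 and limma 3.58.1 (voom) were alternatives, with other scalings, filters, the replicate number as a block and libraries left out.

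Transcripts of GENCODE M21 were aligned with blastn 2.17.0 (E-value 1e-10, at least 40 bases), and opposite-strand exon overlaps were found with bedtools 2.31.1. Nuclear copies without an annotated transcript were not searched. Entries printed in full were the 10 with the highest mean count, and from the nuclear list those past the threshold or, with none, the 3 with the highest mean CPM. The report names others as chosen after their values were seen.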

Additional observations from a re-analysis of the deposited data

How the results depend on the processing

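In none of the 19 alternatives was a mitochondrial entry called in any comparison, and the smallest adjusted p was 0.596. For mt-Co1 in PINCH1 mutants against controls, the unadjusted p (0.110 as reported) was 0.015 without a filter, 0.013 with the filter of 1 CPM in 3 libraries, 0.023 with the replicate block, 0.032 without control library 2 and 0.030 without PINCH1 mutant library 3, with adjusted p-values from 0.596 to 0.883. Of 741 log2 fold changes under the alternatives, 119 had the other sign from the reported value, 78 of them with 1 library left out. With 3 libraries a group, 95% intervals of the 6 entries in the matched stretch spanned several log2 units. For PINCH1 mutants against controls, their SEs ran from 1.41 (mt-Nd3) to 2.09 (mt-Atp6) as reported. With the replicate number as a block these SEs were smaller, from 0.76 (mt-Atp8) to 1.07 (mt-Nd3). The minus-strand share is that of mt-Nd6 alone and the entries are all protein genes, so the alternatives on strand, on protein genes and on tRNAs gave no further value.

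The numbers of entries called over the whole table moved more. For PINCH1 mutants against controls (3 as reported) it was 1 with plain library totals, limma-voom or only the 6 libraries compared, 15 without a filter, 16 with the filter of 1 CPM in 3 libraries, 7 with DESeq2, 7 without the 3 libraries numbered 2 (chosen after seeing the data), and 1 to 9 with 1 library left out (9 without control library 2, and 1 without control library 1 or any PINCH1 mutant library). For PINCH2 mutants against controls (1 as reported) it was 0 with limma-voom or only the 6 libraries, and 0 to 1 with 1 library left out (0 without library 1 or 3 of the PINCH2 mutants or of the controls). Between the mutants (4 as reported) it was 20 without a filter, 27 with the CPM filter, 7 with DESeq2, 8 with only the 6 libraries, 12 without the 3 libraries numbered 2, and 3 to 9 with 1 library left out (9 without PINCH2 mutant library 2, and 8 without library 2 of the PINCH1 mutants or of the controls). With the replicate number as a block it was 5 for PINCH1 mutants and 0 for PINCH2 mutants against controls, and 6 between the mutants. Of the 9 pairs of libraries with the same number, 3 had a correlation of deviations over 0.1 across all tested entries (range -0.11 to 0.25). Of the 18 pairs with different numbers, 1 did (range -0.20 to 0.14). The ranges overlapped, and the numbers are not shown to pair the libraries. Across the 13 mitochondrial entries the correlations were 0.37 to 0.99 in pairs with the same number. In the 18 pairs with different numbers they were -0.98 to 0.91, with 6 over 0.1. The mean mitochondrial share of counts without mt-Nd6 was 1.62% in PINCH1 mutants, 1.67% in PINCH2 mutants and 1.74% in controls. The share of mt-Nd6 among mitochondrial counts per kb was 93.6%, 92.4% and 92.4% in the same groups.

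The log2 fold changes that turned sign were as follows, and the cause was not tested. For PINCH1 mutants against controls, limma-voom gave 0.78 for mt-Co2, 1.55 for mt-Atp8, 0.79 for mt-Atp6, 0.54 for mt-Co3, 0.31 for mt-Nd3 and 0.36 for mt-Nd4l, and the replicate block gave 0.050, 0.012, 0.28, 0.36, 0.23 and 0.057 for the same entries. For mt-Nd3 the value was 0.0029 with DESeq2, 0.0065 with RLE scaling, 0.0018 with the CPM filter and 0.018 without a filter, and mt-Nd4 was at -0.021 without the 3 libraries numbered 2. For PINCH2 mutants against controls, limma-voom gave 0.29 for mt-Co2, -0.12 for mt-Atp8, -0.33 for mt-Atp6, -0.49 for mt-Co3, -2.47 for mt-Nd3 and -1.06 for mt-Nd4l, and the replicate block gave 0.27 for mt-Co2 and -0.28 for mt-Nd3. With plain library totals mt-Nd3 was at -0.047 and mt-Nd6 at -0.014, mt-Nd2 was at 0.00046 with the CPM filter, and without the 3 libraries numbered 2 mt-Nd5 was at -0.011 and mt-Nd6 at -0.10. Between the mutants, limma-voom gave 0.49 for mt-Co2, 1.68 for mt-Atp8, 1.12 for mt-Atp6, 1.04 for mt-Co3, 2.78 for mt-Nd3 and 1.41 for mt-Nd4l, and the replicate block gave 0.16 for mt-Co3 and 0.51 for mt-Nd3. mt-Nd3 was at 0.042 with plain library totals, and without the 3 libraries numbered 2 mt-Nd1 was at 0.019 and mt-Cytb at 0.0037. With 1 library left out, the range for PINCH1 mutants against controls was -0.27 to 0.062 for mt-Nd2, -2.21 to 1.42 for mt-Co2, -1.52 to 1.26 for mt-Atp8, -1.84 to 1.24 for mt-Atp6, -1.42 to 1.30 for mt-Co3, -0.46 to 1.09 for mt-Nd3, -1.61 to 1.14 for mt-Nd4l, -0.28 to 0.38 for mt-Nd4 and -0.064 to 0.49 for mt-Nd5. For PINCH2 mutants against controls it was -0.24 to 0.17 for mt-Nd2, -0.45 to 0.029 for mt-Co1, -0.80 to 1.70 for mt-Co2, -0.50 to 1.63 for mt-Atp8, -0.42 to 1.72 for mt-Atp6, -0.43 to 1.63 for mt-Co3, -0.47 to 1.11 for mt-Nd3, -0.36 to 1.54 for mt-Nd4l, -0.20 to 0.46 for mt-Nd4, -0.14 to 0.33 for mt-Nd5, -0.057 to 0.12 for mt-Nd6 and -0.26 to 0.012 for mt-Cytb. Between the mutants it was -0.21 to 0.093 for mt-Nd1, -0.26 to 0.10 for mt-Nd2, -0.31 to 0.073 for mt-Co1, -2.08 to 0.40 for mt-Co2, -1.62 to 0.18 for mt-Atp8, -2.01 to 0.083 for mt-Atp6, -1.56 to 0.22 for mt-Co3, -0.60 to 0.46 for mt-Nd3, -1.82 to 0.14 for mt-Nd4l, -0.35 to 0.20 for mt-Nd4, -0.16 to 0.37 for mt-Nd5, -0.0041 to 0.16 for mt-Nd6 and -0.21 to 0.057 for mt-Cytb.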
